A study of Mus musculus with 16 samples.

Results

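The common response of mouse liver to hypoxia was measured as the mean of 3 exposures against room air. The log2 levels of sustained, intermittent and overlap hypoxia each weighed 1/3, and the room air level was subtracted. All 16 RNA-seq libraries of the series entered it: 12 hypoxia libraries, 4 per exposure, and 4 room air libraries. Every group held livers of wild type C57BL/6J mice at 12 weeks of age, and the groups differed by the labelled exposure. The series title speaks of combined intermittent and sustained hypoxia, and the labels name the third exposure overlap without describing it. The sources used here do not give oxygen levels, length of exposure, feeding or the time of day of collection. All genes were examined, and 14553 of the 55487 in the deposited table passed the filter on low counts. The question was which genes moved the same way in each of the exposures.

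Low oxygen stabilises the hypoxia-inducible factors (HIF), which switch on genes of glycolysis, red cell production and vessel growth. The liver also carries a circadian clock, in which the period and cryptochrome proteins repress their own transcription, and transcription factors of the PAR bZIP family, such as DBP and TEF, pass the rhythm on to metabolic genes. Hepatocytes store fat in droplets, burn it in mitochondria when food is short and make it when insulin is high, while Kupffer cells, the resident macrophages, line the sinusoids.

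Before the genes, the libraries themselves differed. Library totals ran from 10940275 to 64789635 counts and did not separate hypoxia from room air (exact two-sided permutation p = 0.422). Ribosomal RNA took 18.5% to 34.8% of the counts in intermittent hypoxia, 2.53% to 16.8% in overlap hypoxia, 1.55% to 2.77% in sustained hypoxia and 1.57% to 10.2% in room air. Over all 12 hypoxia libraries its mean was 12.3% against 5.22% in room air (exact two-sided permutation p = 0.247, adjusted p = 0.330 over 4 such tests). Major urinary protein genes, abundant in male liver, took 12.4% against 20.1% (exact two-sided permutation p = 0.0418, adjusted p = 0.167). Intermittent hypoxia held 2.83% to 10.4%, below the 14.7% to 25.4% of room air. Sustained (9.63% to 21.4%) and overlap hypoxia (11.7% to 20.5%) overlapped room air. Mitochondrially encoded genes took 4.80% against 2.11% (exact two-sided permutation p = 0.153, adjusted p = 0.305). By group they took 6.23% to 11.7% in intermittent, 2.54% to 7.17% in overlap and 1.43% to 1.73% in sustained hypoxia. Room air held 1.18% to 2.75%, so sustained hypoxia lay within its range. The extraction text names retina while the tissue label is liver, so markers were examined: the summed level of 11 hepatocyte genes was 64282 to 97071 CPM (counts scaled to library size with TMM factors), while 11 photoreceptor and retina genes summed to 6.77 to 16.3 CPM. Of those 11, Rcvrn and Arr3 were at 0 in every library, the others were detected, and of the 2 that passed the filter Rpgrip1 was called higher in the common response (0.82, edgeR adjusted p = 0.0442). The labels give each library its own number but do not say that each is a separate animal, so the p-values rest on the spread among libraries, which may be technical. On the first principal component (32.9% of the variance) intermittent libraries lay at 44.5 to 95.6 and room air libraries at −54.9 to −16.1. Sustained libraries lay within that room air range and overlap libraries between, at −13.3 to 28.1. Intermittent hypoxia replicate 3 stood apart on the second component and overlap hypoxia replicate 3 on the third. Without each of these libraries in turn the common response held 2162 and 2051 genes, close to the count with all libraries given next. Overlap replicate 3 also had the fewest counts, 10940275.

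Of the 14553 genes tested, 2317 (15.9%) were called in the common response at an adjusted p under 0.05 (edgeR quasi-likelihood test, Benjamini-Hochberg), 1067 of them higher (7.33%) and 1250 lower (8.59%). The balance of directions depended on scaling: upper-quartile scaling gave 1226 higher and 933 lower, with the median log2 change of all genes at 0.06 in place of 0.01. Among the called genes, 2054 (14.1%) had the same sign in all 3 exposures, 958 higher (6.58%) and 1096 lower (7.53%). The other 263 moved one way on average and had an exposure with the opposite sign. The 3 comparisons share the room air libraries, so a chance low or high level in room air moves all of them together; of all genes tested, called or not, 7292 (50.1%) had 1 sign throughout. Without room air replicate 3 the common response fell to 882 genes, without replicate 4 to 996 and without replicate 2 to 1422.

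The exposures took very unequal shares in this average. Among the 2054 genes the change was largest in intermittent hypoxia for 1781, in overlap hypoxia for 182 and in sustained hypoxia for 91. The smallest was that of sustained hypoxia for 1724 genes. The median size of the log2 change was 0.95 in intermittent, 0.59 in overlap and 0.30 in sustained hypoxia. Tested alone against room air, 1936 of these genes passed in intermittent, 809 in overlap and 6 in sustained hypoxia, where 5404 (37.1%), 916 (6.29%) and 7 (0.0481%) of all genes passed. The 3 exposures differed among themselves for 1234 of the 2054 (60.1%, against 30.6% of all genes; edgeR F test, adjusted p under 0.05). Every intermittent hypoxia library also had a higher ribosomal RNA share than any library of the other groups. That share and intermittent hypoxia therefore cannot be told apart here. With that share as a covariate the exposures differed for 10 of all genes, in place of 4450, and the common response held 1518 genes, 1457 of them with 1 sign.

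**Figure D1:**
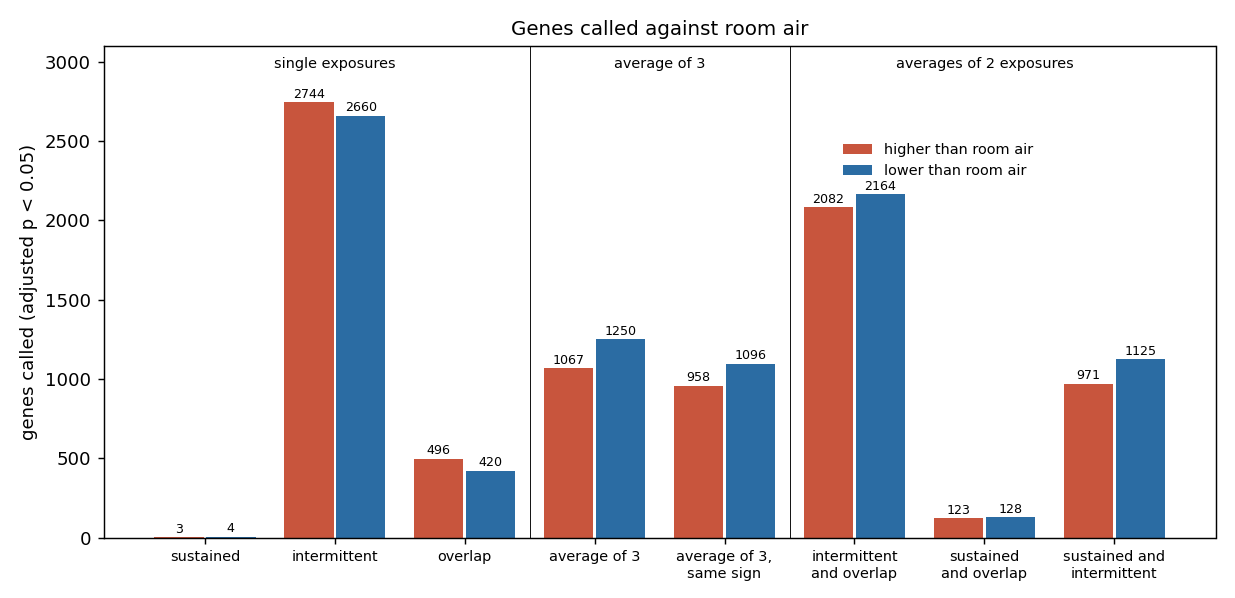
Number of genes called against room air (adjusted p under 0.05), with bars for genes higher and lower than room air in each exposure alone, in the average of all 3 and in the averages of 2. The average of sustained and overlap hypoxia held 123 higher and 128 lower genes, against 958 and 1096 with the same sign in the average of all 3.

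Stricter readings left a smaller set. In 222 genes (1.53% of those tested) that were called with the same sign, 113 higher and 109 lower, the 12 hypoxia libraries all lay on 1 side of the 4 room air libraries. A change of at least 1 on the log2 scale in every exposure was seen in 45 higher and 29 lower genes. Among all genes tested, whether called or not, 0.818% had all 12 hypoxia libraries above room air and 0.79% all 12 below. When intermittent hypoxia was left out of the average, 251 genes (1.72%) were called. Genes called with 1 sign whichever exposure was left out numbered 223 (1.53%): 113 higher (0.776%) and 110 lower (0.756%), and in 102 of them no hypoxia library overlapped room air. This set was chosen after the shares of the exposures had been seen, and its members are called below the genes that held without any 1 exposure. The most demanding test, in which each exposure had to pass by itself, was met by 3 genes (0.0206%): Dbp and Gsta2 were higher and Plin2 was lower, each with an edgeR adjusted p of 0.0481, while 551 genes had an unadjusted p under 0.05 in every exposure. DESeq2 gave 16 genes for the same test.

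The 12 rises and 12 falls whose weakest exposure was farthest from 0 are plotted library by library. The rises were Gstm3, Per3, Per2, Hcn3, Scand1, Gsta2, Scnn1a, Rnf145, Mknk2, Dbp, Alpl and Syt1. The falls were Saa2, Saa1, Mup9, G0s2, Plin2, Insig2, Insc, Folr2, Cd53, Lyz2, Clpx and Saa3. Of these 24 genes, 17 stayed called in each of 16 fits that left out 1 library. In the average without intermittent hypoxia 17 were called, against 1.72% of all genes, and 12 had no overlap between hypoxia and room air. Of all genes, 1.53% were called with 1 sign and no overlap. The 24 were chosen for their change in every exposure, so high counts were favoured by the choice.

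**Figure D2:**
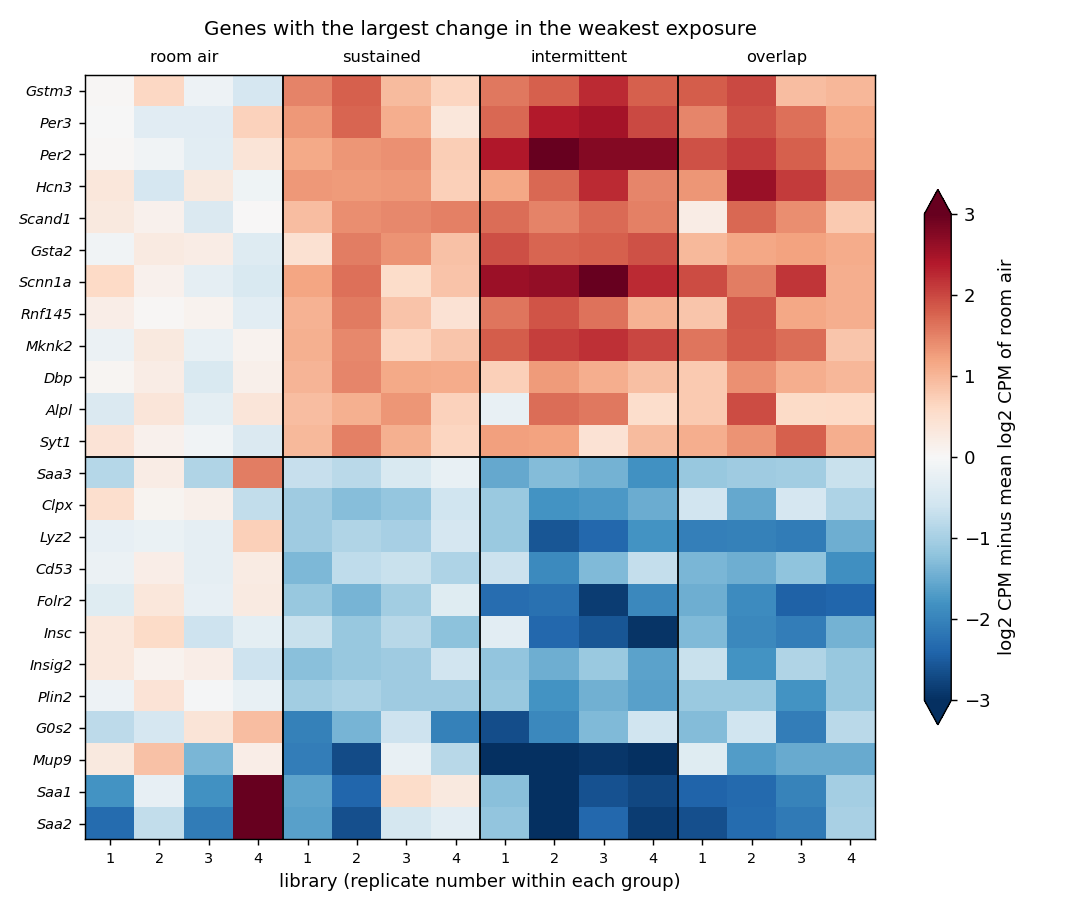
Log2 CPM of each library minus the mean log2 CPM of room air, for the 12 genes with the largest rise and the 12 with the largest fall in their weakest exposure; each column is a library and the colour scale ends at −3 and 3. Rises and falls run through the 3 exposures, with Alpl in intermittent replicate 1 and Saa1 in sustained replicates 3 and 4 among the exceptions, and the room air column of replicate 4 is far above the other room air columns for Saa1 and Saa2.

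Clock genes of the repressing limb and their output factors rose together. Of 13 tested, 7 rose (53.8%, against 7.33% of all genes), none fell, and the median log2 change was 0.93 against 0.01 over all genes. The risers were Per1, Per2 and Per3, the period repressors; Cry2, a cryptochrome repressor; Bhlhe41, a repressor of clock-driven promoters; and the output factors Dbp and Tef. Of these, 5 held without any 1 exposure: Per2, Per3, Cry2, Dbp and Tef. By exposure the list median was 0.60 (sustained), 0.99 (intermittent) and 0.76 (overlap). Leaving out any 1 library left between 5 and 8 members called, all higher. The 6 that did not pass were Nr1d2, Bhlhe40, Ciart, Cry1, Hlf and Nr1d1, with log2 changes of 0.33 to 1.42.

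The period genes and their output partners are known to be switched through E-boxes (CACGTG), bound by the activators CLOCK and BMAL1, and D-boxes (TTATGTAA or TTACGTAA), bound by DBP and TEF. The windows of 250 bases before a start of Per3, Per1 and Tef hold such letters and are shown for that reason, chosen after the search, from RefSeq on GRCm38.p6, 5′ to 3′ on the strand of the gene, with the D-box or E-box in capitals. The Per3 window is chr4:151044666-151044915 on the minus strand, that of Per1 chr11:69098699-69098948 on the plus strand and that of Tef chr15:81802423-81802672 on the plus strand.
Per3: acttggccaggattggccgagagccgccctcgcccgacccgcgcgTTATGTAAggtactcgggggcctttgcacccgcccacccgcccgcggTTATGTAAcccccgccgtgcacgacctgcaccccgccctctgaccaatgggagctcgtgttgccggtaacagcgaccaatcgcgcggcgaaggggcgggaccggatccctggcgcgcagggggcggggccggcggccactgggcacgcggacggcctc
Per1: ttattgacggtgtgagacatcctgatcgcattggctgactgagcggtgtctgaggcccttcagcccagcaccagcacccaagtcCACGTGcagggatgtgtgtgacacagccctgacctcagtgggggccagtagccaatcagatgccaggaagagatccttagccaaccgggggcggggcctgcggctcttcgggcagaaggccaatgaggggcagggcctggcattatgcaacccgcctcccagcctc
Tef: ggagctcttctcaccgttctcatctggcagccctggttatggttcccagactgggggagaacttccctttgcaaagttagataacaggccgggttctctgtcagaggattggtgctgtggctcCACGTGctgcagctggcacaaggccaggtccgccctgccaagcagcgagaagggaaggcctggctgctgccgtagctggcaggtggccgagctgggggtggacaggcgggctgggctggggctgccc
A further Per1 window, chr11:69099902-69100151, holds neither, and a further Tef window, chr15:81811164-81811413, also holds an E-box. Over both strands, 6.02% of all 32851 promoter windows in the table hold an E-box and 0.931% a D-box, and of the windows of genes tested here 8.06% and 0.699%. Among windows of genes that were called and higher in every exposure the shares were 8.80% and 0.391%, and among those of genes lower in every exposure 7.32% and 0.963%. The hypoxia response core ACGTG, which lies within every E-box, was in 16.6% of all windows, 20.99% of those of tested genes, 22.4% of those of the higher and 19.7% of those of the lower genes. The Dbp window held neither an E-box nor a D-box. A match describes letters in a window, not binding, and no match says only that the letters are not in that window.

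Dbp (ENSMUSG00000059824, chromosome 7, 45705088 to 45710203, GRCm38) rose by much the same amount in each exposure. It stood at 48.0, 53.8, 33.4 and 51.3 CPM in room air, 92.8, 126, 100.5 and 98.6 in sustained, 75.3, 111, 97.8 and 85.8 in intermittent and 78.7, 119, 98.0 and 91.5 in overlap hypoxia. The lowest hypoxia library lay above the highest room air library. The log2 changes were 1.16, 0.99 and 1.05 in that order, with an average of 1.07 (SE 0.14, edgeR adjusted p = 0.000418), and the exposures did not differ detectably (adjusted p = 0.694). An opposite-strand gene lies across 18.01% of its exon bases, and the strand setting of the counting is not given.

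Per2 (chromosome 1, 91415982 to 91459324) rose in every exposure by amounts that did differ. Room air libraries held 2.47, 2.24, 1.95 and 3.15 CPM, sustained 5.34, 6.06, 6.23 and 4.01, intermittent 12.8, 27.7, 16.3 and 16.3, and overlap 9.02, 10.3, 8.39 and 5.64. All 12 hypoxia values were above room air. The average log2 change was 1.94 (SE 0.21, edgeR adjusted p = 9.82e-05), the exposures differed (adjusted p = 0.000102), and without intermittent hypoxia the average was 1.46. Per3 had an average of 1.59 (SE 0.25, edgeR adjusted p = 0.000965); its room air replicate 4, at 5.23 CPM, lay above sustained replicate 4, at 4.10 CPM, so the groups overlapped. Tef had an average of 0.94 (SE 0.13, edgeR adjusted p = 0.000503), again with overlap between room air replicate 4 (53.3 CPM) and sustained replicate 4 (45.8 CPM). Per1 averaged 0.93 (adjusted p = 0.0155) and was at 0.58 without intermittent hypoxia, where it did not pass (edgeR adjusted p = 0.238). It also did not pass without room air replicate 2 or 3, with an edgeR adjusted p of at most 0.0590. Positive-limb and opposite-phase clock genes, a list that also holds the repressor Nfil3, gave no call among 5 tested. Arntl, which encodes BMAL1, averaged −1.79 (SE 0.61, edgeR adjusted p = 0.0519) on levels of at most 0.712 CPM, and Clock averaged −0.50 (edgeR adjusted p = 0.241).

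**Figure D3:**
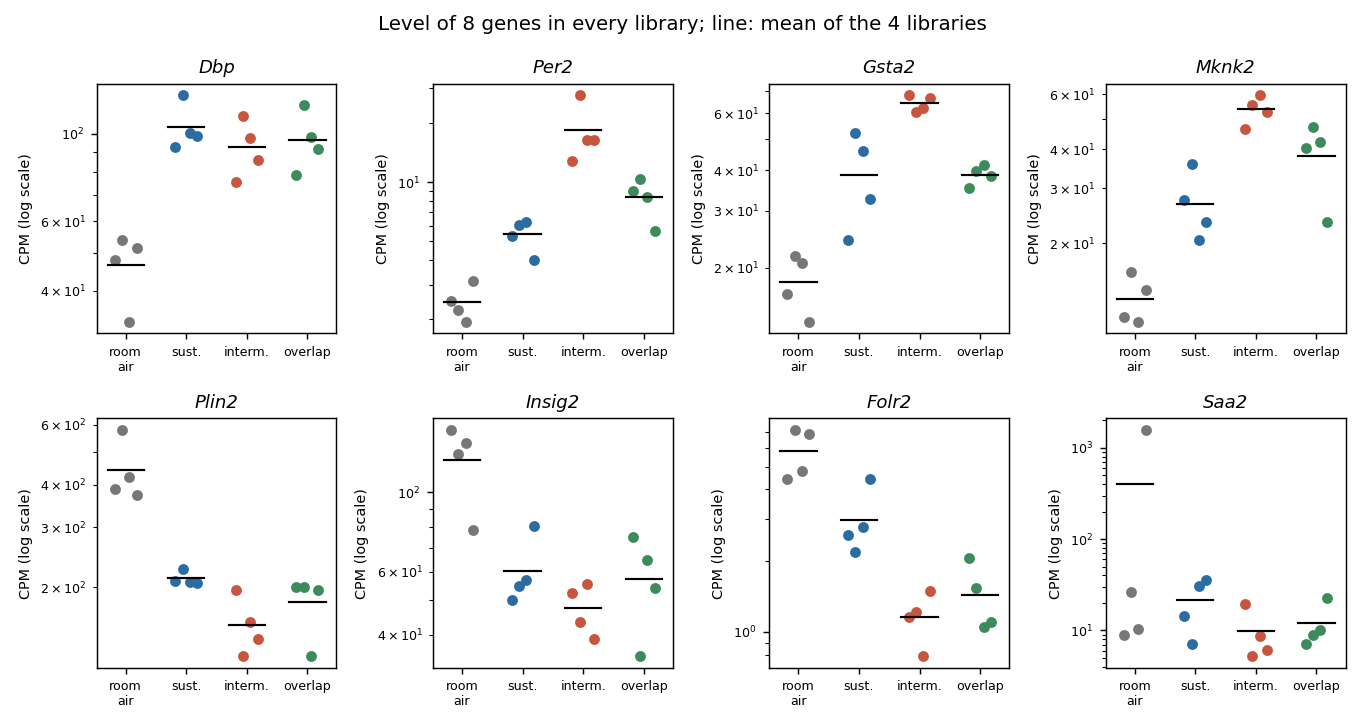
CPM on a log scale in every library for 8 genes, with a line at the mean of the 4 libraries of a group. Dbp, Per2, Gsta2 and Mknk2 have every hypoxia library above room air, Plin2 and Folr2 every one below, Insig2 has 1 sustained library within the room air range, and the room air mean of Saa2 is set by 1 library.

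Of 16 genes of lipid droplet coats and lipolysis tested, 4 fell, 1 rose and 11 did not pass (25.0% lower, against 8.59% of all genes), with a median of −0.37. Plin2 (chromosome 4, 86648386 to 86670060), the droplet coat protein whose amount follows stored fat, stood at 388, 579, 421 and 373 CPM in room air. It was at 209, 226, 208 and 206 in sustained, 197, 125, 159 and 141 in intermittent and 199.99, 201, 126 and 197 in overlap hypoxia. No hypoxia library reached the lowest room air value. The average log2 change was −1.28 (SE 0.13, edgeR adjusted p = 6.22e-05), and it remained called in all 16 fits that left out a library. Plin5, a coat protein that ties droplets to mitochondria, averaged −0.92 (adjusted p = 0.0111), G0s2, the inhibitor of adipose triglyceride lipase, −1.47 (adjusted p = 0.0247), and Abhd5, the coactivator of that lipase, −0.42 (adjusted p = 0.0372). Pnpla2, which encodes the lipase, rose by 0.49 (edgeR adjusted p = 0.0367). Without intermittent hypoxia, or without room air replicate 4, 1 member of the list was called lower and none higher. Plin5 and G0s2 also lost their calls without room air replicate 3, and Pnpla2 was called in 8 of 16 fits that left out a library.

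Fatty acid oxidation and ketone body genes fell together on average. Of 30 tested, 17 fell (56.7%, against 8.59% of all genes) and 1, Cpt1a, rose; the median was −0.33 and the exposures' medians were −0.19 in sustained, −0.53 in intermittent and −0.34 in overlap. All 17 had the same sign in every exposure, while Cpt1a, the entry step into mitochondria, was at −0.02, 0.66 and 0.52. Slc25a20, the carrier that brings acylcarnitines across the inner mitochondrial membrane, stood at 121, 139, 152 and 162 CPM in room air, 105, 83.5, 98.0 and 100.3 in sustained, 65.5, 87.1, 83.5 and 86.0 in intermittent and 94.1, 86.3, 86.6 and 101 in overlap hypoxia. Its groups did not overlap (average −0.68, SE 0.10, edgeR adjusted p = 0.000627). Slc22a5, the carnitine importer, averaged −0.89 (edgeR adjusted p = 0.00731). Fgf21, a fasting hormone and PPARA target, averaged −1.49 (edgeR adjusted p = 0.0100) on a low mean level of 1.08 CPM. These 3 held without any 1 exposure, but Slc22a5 did not pass without room air replicate 4 (edgeR adjusted p = 0.0508) nor Fgf21 without replicate 3 (edgeR adjusted p = 0.0800). Etfdh, which hands electrons from fat oxidation to ubiquinone, averaged −0.67 (edgeR adjusted p = 0.000965). It stood at −0.24 in sustained hypoxia, and the exposures differed (adjusted p = 0.000212). The count of falls was 3 without intermittent hypoxia, 6 with the ribosomal RNA share as a covariate, and 4 to 17 when a library was left out, 4 of them without room air replicate 4. The list median stayed between −0.39 and −0.31 over those left-out fits.

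Insig2 (chromosome 1, 121304353 to 121332589), an endoplasmic reticulum protein that retains the sterol factors SREBP, was lower in all 3 exposures. Its levels were 149, 128, 137 and 78.4 CPM in room air, 50.01, 54.7, 56.8 and 80.3 in sustained, 52.3, 43.4, 55.5 and 39.0 in intermittent and 75.0, 34.8, 64.6 and 54.1 in overlap hypoxia. Only sustained replicate 4 lay above the lowest room air library. The average log2 change was −1.17 (SE 0.17, edgeR adjusted p = 0.000809) and the exposures did not differ detectably (adjusted p = 0.450). Sterol genes themselves were mostly not called: of 25 tested, 1 rose and none fell. Rnf145, a ubiquitin ligase of the sterol pathway, rose without overlap between groups, by 1.29 (SE 0.22, edgeR adjusted p = 0.00113).

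Among 20 genes of fatty acid and triglyceride synthesis, 2 rose and 1 fell. These counts were near the shares of all genes, of which 7.33% were called higher and 8.59% lower. Acaca, acetyl-CoA carboxylase, the committing step of fat synthesis, rose by 0.71 (SE 0.18, edgeR adjusted p = 0.0143) with 12.0 to 17.4 CPM in room air and 17.8 to 39.7 CPM in the hypoxia libraries, which did not overlap; without room air replicate 4 it did not pass (edgeR adjusted p = 0.0698). Fasn, fatty acid synthase, also had no overlap, from 43.8 to 58.7 CPM in room air and from 59.0 to 387 CPM in hypoxia. It did not pass the test (average 1.35, SE 0.48, edgeR adjusted p = 0.0735). Mlxipl, the carbohydrate response factor ChREBP, was called at 1.05, with 0.04 in sustained and 2.05 in intermittent hypoxia. Without intermittent hypoxia no member of the list was called.

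Genes of insulin signalling and the FoxO factors rose in 5 of 16 cases (31.3%, against 7.33% of all genes) and fell in none, with a median of 0.27. Foxo3, a factor that insulin keeps out of the nucleus, stood at 6.64, 6.78, 10.04 and 10.6 CPM in room air and at 11.7 to 19.8 CPM in all 12 hypoxia libraries. Its log2 changes were 0.84, 0.76 and 0.90 (average 0.83, SE 0.15, edgeR adjusted p = 0.00153). Gys2, liver glycogen synthase, rose by 0.48 (SE 0.11, edgeR adjusted p = 0.00604) from 90.9 to 119 CPM in room air to 127 to 177 CPM in hypoxia. Foxo4 rose by 0.73 (adjusted p = 0.00795), Insr, the insulin receptor, by 0.35 (adjusted p = 0.0142) and Pik3ca, a phosphoinositide kinase subunit, by 0.40 (edgeR adjusted p = 0.0334). For the first 3 no hypoxia library overlapped room air, and Foxo3 and Gys2 held without any 1 exposure. Of the 5, 3 were called without room air replicate 4. The glucose output gene G6pc did not share a direction: its log2 changes were −1.95 (sustained), 0.07 (intermittent) and −0.65 (overlap).

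Pericentral hepatocyte genes, expressed around the central vein, gave 5 rises and no fall among 16 tested (31.3% higher, against 7.33% of all genes), with a median of 0.12; no periportal gene of 14 was called (median −0.12). Glul, glutamine synthetase, stood at 362, 302, 300.2 and 292 CPM in room air, 541, 543, 485 and 371 in sustained, 292, 492, 517 and 477 in intermittent and 449, 649.9, 687 and 402 in overlap hypoxia. All hypoxia libraries lay above room air except intermittent replicate 1, which lay just below its lowest library. The average was 0.64 (SE 0.16, edgeR adjusted p = 0.0122), and it did not pass without room air replicate 3 or 4 (edgeR adjusted p = 0.0541 and 0.0531). Slc1a2, a glutamate transporter of the same cells, rose by 0.58 (SE 0.13, adjusted p = 0.00581) with no overlap, as did Nkd1, a Wnt pathway inhibitor, by 1.34 (adjusted p = 0.00844). Gulo and Cyp1a2 rose by 0.43 and 0.77 (edgeR adjusted p = 0.0262 and 0.0337). In this list 2 were called without room air replicate 3 or 4, and 1, Glul, without intermittent hypoxia.

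Of 24 NRF2 targets and antioxidant enzymes tested, 5 rose, 3 fell and 16 did not pass (20.8% higher and 12.5% lower, against 7.33% and 8.59% of all genes), and the median was 0.01, the same as over all genes. The calls were 3 rises and 1 fall without room air replicate 3 or 4. The risers were 4 glutathione transferases and Sod2; the other transferases of the list, Gsta1, Gsta3 and Gsta4, did not pass. Gsta2 (chromosome 9, 78331018 to 78355788), a transferase of the alpha class, stood at 16.6, 21.7, 20.7 and 13.6 CPM in room air, 24.4, 52.0, 45.7 and 32.6 in sustained, 68.2, 60.2, 62.2 and 66.9 in intermittent and 35.2, 39.7, 41.4 and 38.3 in overlap hypoxia. Every hypoxia library was above room air, and the average was 1.34 (SE 0.16, edgeR adjusted p = 0.000136). Gstm3, Gstm2 and Gstm1, of the mu class, rose by 1.499, 1.04 and 0.78 (adjusted p = 0.00250, 0.00760 and 0.0230), and Sod2, the mitochondrial superoxide dismutase, by 0.36 (edgeR adjusted p = 0.0393). Gsta2, Gstm2 and Gstm3 held without any 1 exposure. Of the words of 50 bases in Gsta2 and Gstm3, 49.8% and 28.8% also occur in transcripts of other genes, so these values depend on how shared reads were divided. Prdx1, Gpx4 and Gpx1, which remove peroxides, fell by 0.53, 0.63 and 0.55, with sustained hypoxia at −0.10, −0.08 and 0.06; none of the 3 was called in the average without intermittent hypoxia. Nqo1 and Srxn1, classical NRF2 targets, averaged 0.09 and 0.01.

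Several other genes rose in every exposure. Mknk2, a kinase that phosphorylates the cap-binding protein eIF4E, had 11.6, 16.2, 11.2 and 14.2 CPM in room air, 27.5, 36.0, 20.5 and 23.4 in sustained, 46.7, 55.7, 59.8 and 52.8 in intermittent and 40.3, 47.0, 42.2 and 23.3 in overlap hypoxia. No library overlapped (average 1.52, SE 0.18, edgeR adjusted p = 0.000104), and the exposures differed (adjusted p = 0.00247). Scnn1a, the alpha subunit of the epithelial sodium channel, averaged 1.79 (adjusted p = 0.000578), and the channel gene Hcn3 1.57 (adjusted p = 0.000928). Syt1, a calcium sensor of vesicle release, averaged 1.11 with 2.16 to 3.88 CPM in room air and 3.97 to 10.1 CPM in hypoxia, with no overlap (edgeR adjusted p = 0.00151). The exposures did not differ detectably for it (adjusted p = 0.458). Scand1 averaged 1.33 and Alpl, alkaline phosphatase, 1.03 (edgeR adjusted p = 0.000965 and 0.0470). For Scand1 hypoxia and room air libraries overlapped, an opposite-strand gene lies across 40.4% of its exon bases, and 29.7% of its words occur in other genes. Alpl was called in 6 of 16 fits that left out a library. Among called genes with 1 sign and a mean of at least 2 CPM, the highest averages besides that of Per2 were those of Col27a1, a fibrillar collagen (2.17), Srcap, a chromatin remodeller (2.04), Bcl9l, a beta-catenin coactivator (2.002), and the kinesin Kifc2 (1.94). In these 4 the change was 3.02 or more in intermittent and 0.87 or less in sustained hypoxia. Col27a1 and Srcap did not pass without intermittent hypoxia (edgeR adjusted p = 0.0621 and 0.411). Srcap was also lost without any of the 4 room air libraries in turn, and 63.0% of its words are shared with other genes. Among falls, Clpx, the unfoldase of a mitochondrial protease, averaged −1.18 (adjusted p = 0.00126), and Insc, a spindle orientation adaptor, −1.47 (edgeR adjusted p = 0.0130). Mup9, a major urinary protein, averaged −2.17 (adjusted p = 0.0133), with 79.1% of its words in other genes. Insc and Mup9 did not pass without room air replicate 2 (edgeR adjusted p = 0.0582 and 0.0549).

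**Figure D4:**
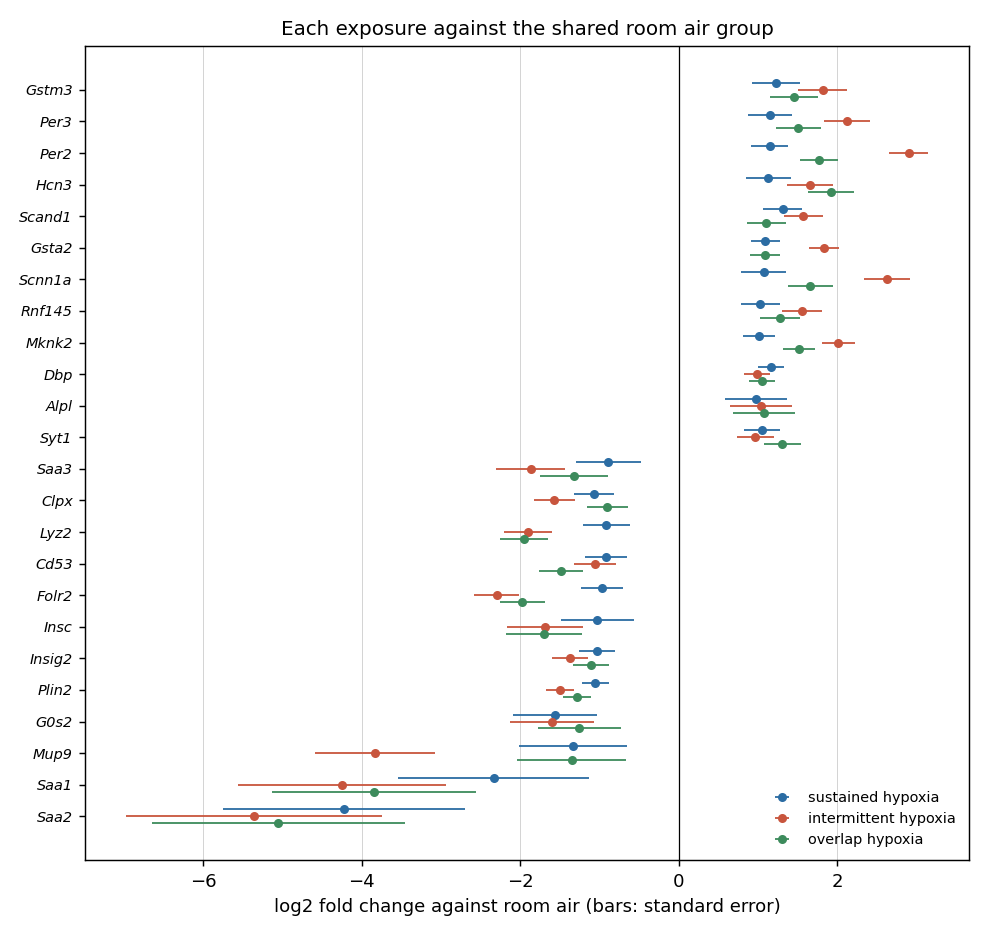
Log2 fold change of each exposure against the shared room air group, with bars of 1 standard error, for the 12 rises and 12 falls whose weakest exposure was farthest from 0. The points of Dbp, Syt1, Insig2 and Plin2 lie close together, those of Per2, Scnn1a and Mup9 spread with intermittent hypoxia outermost, and Saa1 and Saa2 have the longest bars.

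Markers of Kupffer cells fell in all 3 exposures. Of 14 tested, 9 fell (64.3%, against 8.59% of all genes) and none rose, with a median of −1.08; by exposure the medians were −0.59 (sustained), −1.03 (intermittent) and −1.36 (overlap). The fallers were Folr2, Adgre1, Vsig4, Cd5l, Clec4f, C1qa, Timd4, C1qc and C1qb, and all except C1qb held without any 1 exposure. The summed level of the 14 genes was 188 to 291 CPM in room air, 133 to 203 in sustained, 86.6 to 165 in intermittent and 94.1 to 116 in overlap hypoxia, so sustained hypoxia overlapped room air and the other exposures did not. None of the 14 was at 0 in every library. In bulk tissue fewer cells of a type cannot be told apart from less RNA per cell.

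Clec4f, a lectin of Kupffer cells in mice, stood at 42.2, 41.6, 31.7 and 66.1 CPM in room air, 22.2, 22.4, 25.9 and 39.1 in sustained, 23.3, 12.7, 9.69 and 20.6 in intermittent and 14.4, 11.1, 12.3 and 18.4 in overlap hypoxia. Sustained replicate 4 was the single hypoxia library within the room air range (average −1.29, SE 0.22, edgeR adjusted p = 0.00159). Vsig4, a complement receptor of the same cells, stood at 9.41, 7.68, 6.58 and 7.47 CPM in room air, 2.99, 3.88, 2.56 and 5.52 in sustained, 5.34, 3.67, 3.54 and 4.9955 in intermittent and 3.54, 2.70, 3.32 and 3.32 in overlap hypoxia. Its groups did not overlap (average −1.05, SE 0.17, edgeR adjusted p = 0.000937), nor did the exposures differ detectably (adjusted p = 0.277). Folr2, the folate receptor of tissue macrophages, had 4.44 to 7.15 CPM in room air and 0.786 to 4.41 CPM in hypoxia, apart by a narrow margin (average −1.75, SE 0.20, edgeR adjusted p = 0.000104); 52.6% of its words occur in other genes. Lyz2, lysozyme of macrophages and neutrophils, and Cd53, a leukocyte tetraspanin, averaged −1.59 and −1.16 (edgeR adjusted p = 0.000924 and 0.00139), both without overlap.

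The count of Kupffer cell markers was little moved by the settings that changed other lists. It was 8 of 14 without intermittent hypoxia (where 1.72% of all genes were called), 8 with the ribosomal RNA share as a covariate, and 8 to 11 when a library was left out. The list median ranged from −1.17 to −0.92 over those left-out fits. Hepatocyte markers gave no call among 11 (median −0.15), and lymphocyte markers none among 11 (median −0.66). Sinusoidal endothelial markers fell in 4 of 14 cases (28.6%, against 8.59% of all genes), with a median of −0.19. By exposure the medians were −0.29 (sustained), 0.17 (intermittent) and −0.44 (overlap), so the list did not fall in every exposure. Its summed level was 211 to 229 CPM in intermittent hypoxia and 177 to 219 CPM in room air. The called genes were Mrc1, Clec4g, Oit3 and Kdr, and Kdr was at 0.01 in intermittent hypoxia. Oit3 and Kdr were called in 6 and 5 of the 16 left-out fits, and 2 of the 4 were called without room air replicate 4 or with the ribosomal RNA covariate. Mrc1, the mannose receptor that macrophages also carry, averaged −0.92 with no overlap (edgeR adjusted p = 0.000578). Of 6 neutrophil and monocyte markers, Lyz2 and S100a8 fell (33.3%, against 8.59% of all genes).

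Saa2 and Saa1, serum amyloid genes of the acute phase, had the largest falls among named genes, and these rested on 1 library. Saa2 stood at 8.86, 26.3, 10.3 and 1577 CPM in room air, 14.3, 7.08, 30.5 and 35.4 in sustained, 19.4, 5.19, 8.60 and 6.13 in intermittent and 7.08, 8.88, 10.1 and 22.6 in overlap hypoxia. Apart from room air replicate 4 the groups overlapped. The average was −4.88 (SE 1.02, edgeR adjusted p = 0.00817) with that library and −0.14 (edgeR adjusted p = 0.924) without it. For Saa1 the values were −3.47 and −0.36, and for Saa3 −1.36 and −0.59, neither called without it (edgeR adjusted p = 0.797 and 0.0803). Of 20 acute phase genes 6 fell with all libraries, and without room air replicate 4 none did; the other 3 were the haptoglobin gene Hp and the fibrinogen chain genes Fga and Fgg. Room air replicate 4 also had the highest Lyz2 level of its group (96.9 CPM against 48.9 to 51.5), and Lyz2 remained called without it at −1.29 (edgeR adjusted p = 0.00480).

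Of 27 HIF target genes tested, 1 rose and 4 fell (3.70% higher and 14.8% lower, against 7.33% and 8.59% of all genes), with a median of −0.10. Vegfa, the vessel growth factor, rose by 0.87 (SE 0.15, edgeR adjusted p = 0.00109): room air libraries held 27.8, 17.0, 21.6 and 23.4 CPM, sustained 22.5, 29.7, 21.1 and 25.7, intermittent 60.9, 74.3, 76.7 and 59.9, and overlap 42.9, 29.9, 51.9 and 40.5. Sustained hypoxia lay within or just above the room air range and the exposures differed (adjusted p = 6.43e-05). Ldha, lactate dehydrogenase, fell in all 3, by 0.65, 1.00 and 0.74 (average −0.80, SE 0.16, edgeR adjusted p = 0.00342), with room air replicate 1 (372 CPM) below 1 sustained library (409.7 CPM). It held without any 1 exposure. Bnip3l and Pgk1 were also among the falls, and Pgk1 was at 0.02 in sustained hypoxia. Without room air replicate 4, 1 of the 4 falls was called. Of 10 oxygen sensing genes, Vhl, the ubiquitin ligase subunit that marks HIF for breakdown, fell by 0.59 (edgeR adjusted p = 0.0115), with −0.19 in sustained hypoxia. Vhl was the only call in that list, a share near the 8.59% of all genes called lower.

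**Figure D5:**
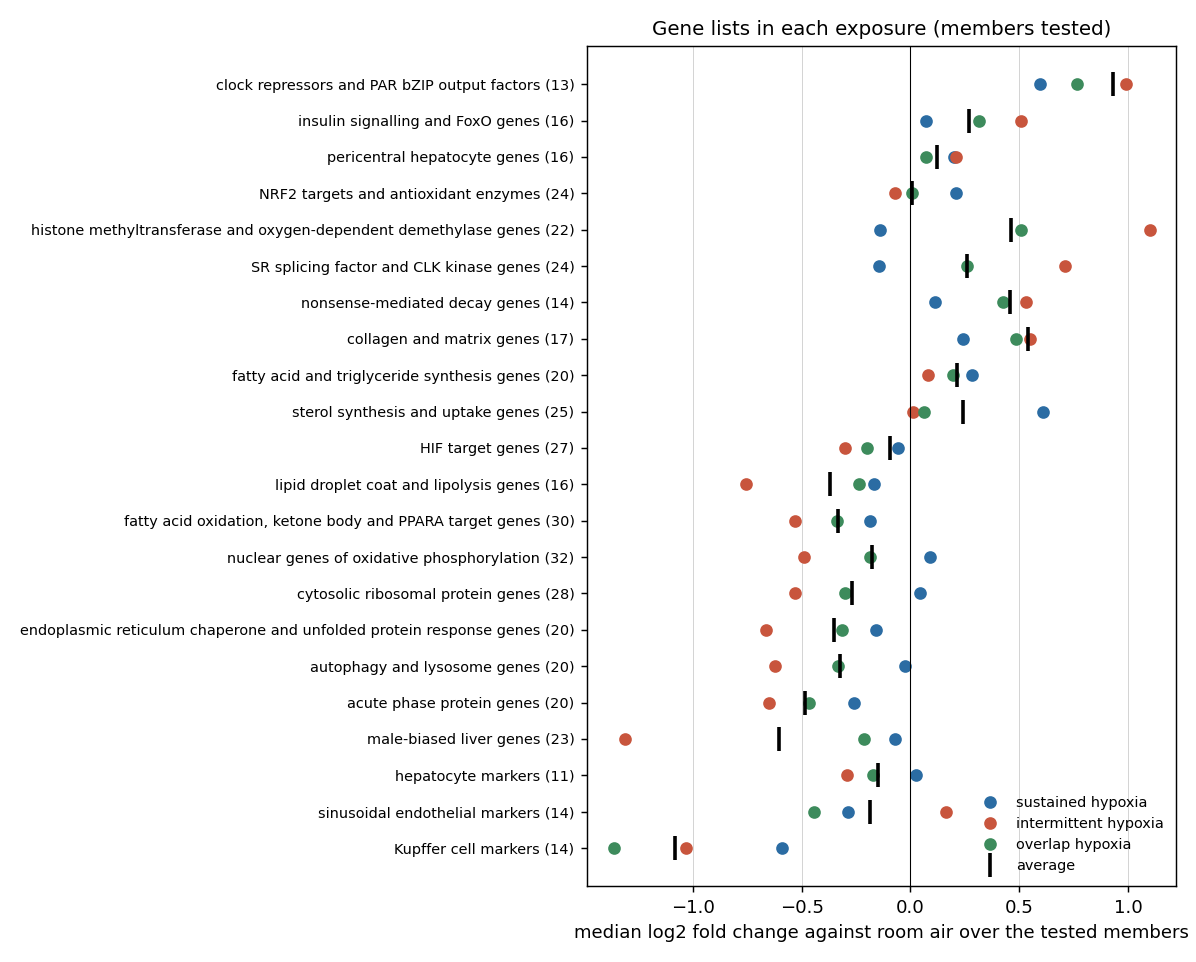
Median log2 fold change against room air over the tested members of 22 gene lists (members tested in brackets), as a point for each exposure and a bar for the average of all 3. Clock repressors and Kupffer cell markers lie away from 0 on the same side in all exposures, while the chromatin, splicing, oxidative phosphorylation and ribosomal protein lists have sustained hypoxia across 0 or near it.

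Other lists reached the common response mainly through intermittent and overlap hypoxia. Of 22 histone methyltransferase and demethylase genes 9 rose, yet 4 of the 9 had the same sign in every exposure, and the medians were −0.14, 1.10 and 0.51 across sustained, intermittent and overlap hypoxia. Nuclear genes of oxidative phosphorylation fell in 11 of 32 cases (34.4%), 7 with the same sign, and ribosomal protein genes in 9 of 28 (32.1%), 3 with the same sign, against 8.59% of all genes. Splicing factor genes rose in 8 and fell in 1 of 24 (33.3% higher, against 40.9% in the methyltransferase list and 7.33% of all genes). Without room air replicate 4 the calls in the main direction were 6 (methyltransferases), 2 (oxidative phosphorylation), 1 (ribosomal proteins) and 5 (splicing), and without replicate 3 they were 6, 2, 3 and 5. In the average without intermittent hypoxia the calls in these 4 lists were 0, 0, 0 and 1. The medians of these 4 lists lay farthest from 0 in intermittent hypoxia, which also had the highest ribosomal RNA share. That share and the exposure cannot be told apart. With the share as a covariate 6, 4, 1 and 5 members were called in the same direction. Endoplasmic reticulum chaperones fell in 5 of 20 (25.0%) and autophagy and lysosome genes in 9 of 20 (45.0%), with 1 rise; without room air replicate 3 or 4 the autophagy falls were 4 and 3. Canx and Lamp2 fell with no overlap between groups (−0.69 and −0.56, edgeR adjusted p = 0.00310 and 0.00374). Neither list had a call without intermittent hypoxia. With the ribosomal RNA covariate the falls were 13 among chaperones and 3 among autophagy genes. Male-biased liver genes fell in 6 of 23 cases (26.1%, against 8.59% of all genes) and female-biased genes rose in 3 of 11 (27.3%, against 7.33%), again with no call without intermittent hypoxia. These counts were 1 and 1 without room air replicate 3, and without replicate 4 they were 3 and 1.

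The 2 directions differed in what kind of genes they held. The median summed exon length was 5330 bases for the genes higher in every exposure, 3182 for those lower and 4032 for all genes tested. The median level was 6.54 CPM for the higher and 22.6 CPM for the lower genes, against 4.71 CPM. Across genes, which are not independent replicates, the Spearman correlation of length with the log2 change was 0.19 in the average, −0.12 (sustained), 0.26 (intermittent) and 0.21 (overlap). The sign was positive in the exposures whose libraries reached the higher ribosomal RNA shares, and the part of that share was not tested. With gene length offsets in the model, 2282 genes were called in the common response. Protein-coding genes made up 95.4% of the higher and 95.7% of the lower genes, against 87.3% of all genes tested.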

How the data were processed

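The authors deposited expected counts per gene, made with Bowtie 1.3.0 and RSEM on GRCm38 per the submitters' processing notes. The sources used here do not state read length, strand setting or order of steps. Of the nonzero values 49.3% were not whole. Symbols came from GENCODE on the same build by identifier (55227 of 55487 genes). Expected counts were rounded, filtered with filterByExpr, scaled by TMM and fitted with the quasi-likelihood model of edgeR 4.0.16 (R 4.3.3), 1 coefficient per group and robust dispersions, over all 16 libraries. Scripts were tested on simulated data. The contrast was the mean of the 3 exposure coefficients minus room air, and p-values were adjusted by the method of Benjamini and Hochberg over all 14553 genes. Levels are TMM-scaled CPM; log2 changes come from the fit.

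Members, gene lists (42 of pathways, 13 of markers) and tests were chosen with earlier results of these data known, so the lists support nothing by themselves. Named genes were: the 12 rises and 12 falls with the largest change in their weakest exposure among called genes of 1 sign that averaged 2 CPM or more, predicted genes left out; the 5 highest and 5 lowest averages; genes passing in every exposure; up to 4 members with the lowest p per list; and a short list of clock, lipid and hypoxia genes, likewise chosen with earlier results known. Other list members were named to account for counts, after their values were seen. Some members of the lists are counted but not reported here by name. Within groups, 24 pairs of libraries differed by a chi-square per degree of freedom of 64.4 to 491, so none were duplicates. Reads carry no molecular identifiers.

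Alternatives were other scalings, filters, dispersions and tools (DESeq2 1.42.0, limma 3.58.1), a replicate block, a ribosomal RNA covariate, length offsets, averages over 2 exposures and leaving out each library. Leaving the intermittent libraries out of the fit, and the set that held without any 1 exposure, were added after seeing the data.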

Additional observations from a re-analysis of the deposited data

Results flagged for a closer look

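Within a group of 4 libraries, the gap between the highest or lowest value and the next was set against Dixon's 95% critical value. Over 124 groups, of named genes and of the library measures, 13 exceeded it, where chance flags about 5%. All 13 were values of genes.

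Room air replicate 4 was high for Saa1 (2502.5 CPM, others 47.6 to 141), Saa2 (1577.3 CPM, others 8.86 to 26.3) and Lyz2 (96.919 CPM, others 48.9 to 51.5). The falls of Saa1 and Saa2 were lost without it and that of Lyz2 was not, as given with those genes. Overlap replicate 4 was high for Lyz2 at 21.385 CPM, still below every room air library. For Plin2, sustained replicate 2 was high at 225.9 CPM in a tight group (others 206 to 209) and overlap replicate 3 low at 125.81 CPM; Plin2 was called without either.

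Overlap replicate 2 was high for Fasn (386.53 CPM, others 69.7 to 86.4) and for Alpl (10.269 CPM, others 3.93 to 4.54). G6pc was high in sustained replicate 3 at 58.711 CPM, and Hcn3 low in sustained replicate 4 at 2.774 CPM, above every room air library. Intermittent replicate 1 was high for Insc at 7.0336 CPM and for Saa1 at 71.222 CPM. Mup9 was high in overlap replicate 1 at 4542.5 CPM.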

How the results depend on the processing

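None of the 138 named genes called changed sign under an alternative run, and 12 of the 79 not called did. Genes of the common response numbered 251 without intermittent hypoxia (331 with its libraries out of the fit), 4246 without sustained hypoxia, 115 with the 12 hypoxia libraries as 1 group, and 1518 with the ribosomal RNA covariate. For the common response, same sign in every exposure, the first 3 of these gave 251, 331 and 4239. For the common response, separate in every library, 131 were found in the average without intermittent and 1395 were found without sustained hypoxia. Counts of exposures differ among themselves were 24, 4 and 895 there and 10 with the covariate. Genes passing every exposure at once numbered 652 without sustained hypoxia, 16 with DESeq2, 8 without a filter, and 0 in edgeR with the covariate, without robust dispersions, or with the intermittent libraries out of the fit. Upper-quartile scaling turned the split of the common response to 1226 higher and 933 lower, from 1067 and 1250, and moved the median of all genes to 0.06. Leaving out 1 library gave 882 to 2499 genes in the common response, 806 to 2142 with the same sign, 183 to 494 separate, 0 to 3 for every exposure at once and 3453 to 5141 for exposures that differed.

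Same-numbered libraries correlated at −0.10 to 0.18 after group means were removed. The mean correlation was 0.04 for the same number and −0.01 for other numbers, and 8 of 16 libraries lay closest to their own number. Whether replicate numbers pair libraries was not tested. With the replicate block the common response held 2592 genes. Over 4411 pairs of a called named gene and an alternative, the call was kept in 3683 and lost in 728; for named genes not called, 140 pairs gave a call; the cause was not tested where not named.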

Other observations

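Collagen and matrix genes gave 4 rises and no fall among 17 tested (23.5% higher, against 7.33% of all genes; median 0.54): Col27a1, Col18a1, Col5a3 and Col6a2. Col18a1, the source of endostatin, was even over the exposures at 0.46, 0.55 and 0.44, and Col6a2, a microfibrillar collagen, stood at 1.00, 1.46 and 1.298. Without room air replicate 3 Col18a1 did not pass (edgeR adjusted p = 0.0669), nor did Col5a3 without any of the 4 room air libraries in turn. Without room air replicate 3, 1 of the list was called and without replicate 4, 2. None was called without intermittent hypoxia. Stellate cell and fibroblast markers gave no rise among 13 and 1 fall (7.69%, against 8.59% of all genes). The fall was that of Hgf, the hepatocyte growth factor, at −1.61, −0.50 and −1.25 (average −1.12, edgeR adjusted p = 0.00982).

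Of 14 nonsense-mediated decay genes 6 rose and 1 fell (42.9% and 7.14%, against 7.33% and 8.59% of all genes). None was called without intermittent hypoxia, and without room air replicate 3 or 4 the rises were 3 and 2. Upf1, the helicase at the core of that pathway, rose by 0.67 with no overlap between hypoxia and room air (edgeR adjusted p = 0.00439) and stood at 0.47, 0.85 and 0.68. Smg1, its kinase, was called at 0.57 but was at −0.49 in sustained hypoxia. Hsf1, the heat shock factor, rose by 1.08 (edgeR adjusted p = 0.000965), with 0.39, 1.75 and 1.09 in the same order. Fth1, the ferritin heavy chain, rose by 0.36 with no overlap (edgeR adjusted p = 0.0294), but was not called without any of the 4 room air libraries in turn. Gapdh, of glycolysis, rose by 0.83 (edgeR adjusted p = 0.00270), with 25.1% of its words in other genes.

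Erythroid markers gave no call among 7 (median 0.85), and by exposure the median was 1.68 (sustained), 0.12 (intermittent) and 0.49 (overlap). Their summed level over 9 genes was 259 to 719 CPM in room air and 425 to 2092 CPM in sustained hypoxia.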
